A study of Mus musculus with 10 samples.

Results

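The 9 genes described here are 7 Hox genes, Hoxa3, Hoxa5, Hoxa7, Hoxa9, Hoxa10, Hoxb3 and Hoxb4, with Meis1 and Pbx3, which encode partners of Hox proteins. They were chosen by name and found by their Ensembl identifiers among the 38887 genes of the deposited table. All 9 were present. The cells were hematopoietic progenitors isolated from bone marrow. They came from mice bearing Lewis lung carcinoma, a transplantable mouse lung tumour, so both groups carried tumours. In the CK2i group, 5 libraries came from mice given the CK2 inhibitor BMS-595 at 60 mg/kg for 2 weeks. In the vehicle group, 5 libraries came from mice given vehicle over the same time, and their titles call the cells untreated. The labels state neither the mouse strain, age or sex, nor how the progenitors were isolated, nor whether each library came from 1 mouse. The p-values therefore measure the spread between these libraries, which may in part be technical.

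Hox genes lie in clusters and encode homeodomain transcription factors. In blood formation the Hoxa genes around Hoxa9 and the Hoxb genes around Hoxb4 are most active in stem cells and early progenitors, and their expression declines as cells mature. Meis and Pbx proteins belong to a related class of homeodomain proteins, known as TALE. They bind DNA beside Hox proteins and sharpen the choice of site. Hoxa9 with Meis1 is a well-known driver of acute myeloid leukaemia in mice.

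Homeodomain proteins read DNA with the recognition helix, a conserved part of the homeodomain. To show how far the members can be told apart in such a stretch, 30 bases from within the part that encodes this helix, on the coding strand of the GENCODE M21 transcripts, are given for all 9 members, with capitals at bases that differ from Hoxa9.
Hoxa9: tggttccagaaccgcaggatgaaaatgaag
Hoxa10: tggttTcagaaTcgcaggatgaaaCtgaag
Hoxa7: tggttccagaaTcgGCgCatgaaGTGgaag
Hoxa5: tggttccaAaacAgGaggatgaaGTGgaaA
Hoxa3: tggttccagaaccgcCgCatgaaGTACaag
Hoxb3: tggttccagaaccgTCgCatgaaGTACaag
Hoxb4: tggttccagaaTcgGCgCatgaaGTGgaaA
Meis1: tggttTATTaaTGCcCggaGAaGaatAGTg
Pbx3: tggttTGGCaacAAACgAatCaGGTACaag
Hoxa10 matched Hoxa9 at 27 of the 30 bases, the other Hox members at 22 to 24, Meis1 at 16 and Pbx3 at 15. Over whole transcripts, no window of 75 bases, the length of 1 read, was shared between any of the 9 members. Windows shared with other genes came from overlapping annotation. Hoxb3 shared 50.5% of its windows with the antisense transcript Hoxb3os, Hoxa7 shared 17.9% with the antisense Hoxaas3, and Hoxa3 shared 22.5% and Meis1 16.1% with several overlapping transcripts. Hoxa9 shared 0.2%, with the microRNA gene Mir196b inside it, and Hoxa5, Hoxa10, Hoxb4 and Pbx3 shared none. The kit marks strand, but the strand setting of the authors' counting is not given in the sources used here. If strand was ignored, sense and antisense reads cannot be separated where Hoxb3, Hoxa7, Hoxa3 and Meis1 overlap antisense transcripts. Hoxa3 also shared 6.87% of its windows with Gm28308, and Meis1 8.66% with Gm37818, on the same strand, where strand cannot separate them. Hoxb3os itself held 4 to 7 counts in CK2i libraries and 4 to 9 in vehicle libraries.

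Levels between genes were compared in FPKM, fragment counts divided by transcript length and by library size, as the authors deposited them. Meis1 was the most abundant member, at 21.0 ± 3.12 FPKM in CK2i and 22.5 ± 1.66 FPKM in vehicle libraries (SD, n = 5 per group here and below). This mean lay above that of 67.0% of the 14346 genes tested, whose median was 11.1 FPKM. Hoxa9 followed at 9.26 ± 1.2 FPKM in CK2i and 9.94 ± 1.62 FPKM in vehicle libraries. In CK2i libraries Pbx3 at 4.94 ± 0.717 FPKM and Hoxa7 at 4.47 ± 0.474 FPKM came next. In vehicle libraries the order of these was reversed, with Hoxa7 at 3.97 ± 0.647 FPKM and Pbx3 at 3.48 ± 0.629 FPKM. Their ranges over libraries overlapped in both groups. Hoxb4 was at 1.02 ± 0.104 FPKM in CK2i and 0.864 ± 0.0754 FPKM in vehicle libraries. Hoxa3, Hoxa5, Hoxa10 and Hoxb3 were all below 1 FPKM on average in both groups, from 0.694 FPKM for Hoxa3 to 0.362 FPKM for Hoxb3 in CK2i and from 0.652 FPKM for Hoxa5 to 0.240 FPKM for Hoxb3 in vehicle libraries. The ranges of neighbours among these 4 overlapped, and in CK2i libraries that of Hoxb4 overlapped that of Hoxa3. The ranges of Meis1, Hoxa9 and the genes below them did not overlap, nor did those of Hoxb4 and the genes above it. The FPKM of Hoxb4 rests on the authors' length for it: 1 FPKM stood for a scale of 3950 to 4010 bases, against 2566 exonic bases in GENCODE M21.

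Along the Hoxa cluster (GRCm38 chromosome 6) mean levels stayed below 1 FPKM from Hoxa2 (0.128 FPKM in CK2i and 0.130 FPKM in vehicle libraries) through Hoxa6, and were highest at Hoxa9 in both groups. Hoxa10, directly next to Hoxa9, was at 0.396 ± 0.118 FPKM in CK2i and 0.496 ± 0.105 FPKM in vehicle libraries. Hoxa11 had at most 1 count in any library, and Hoxa13 had a count of 0 in all 10. A count of 0 allows up to 3 counts, or 0.0694 to 0.0885 CPM (counts divided by library size after TMM scaling) depending on the library, for counting error only. In the Hoxb cluster (chromosome 11), Hoxb2, Hoxb3 and Hoxb4 held most counts, with at most 16 counts in any library for Hoxb2 and at most 4 counts in any library for each of Hoxb1 and Hoxb5 to Hoxb9. Hoxb13 was at 0 in 9 libraries and had 5 counts in vehicle 4. No gene of the Hoxc cluster and none of the 8 Hoxd genes in the table had enough counts to be tested, and Hoxd4 was not analysed here.

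**Figure D1:**
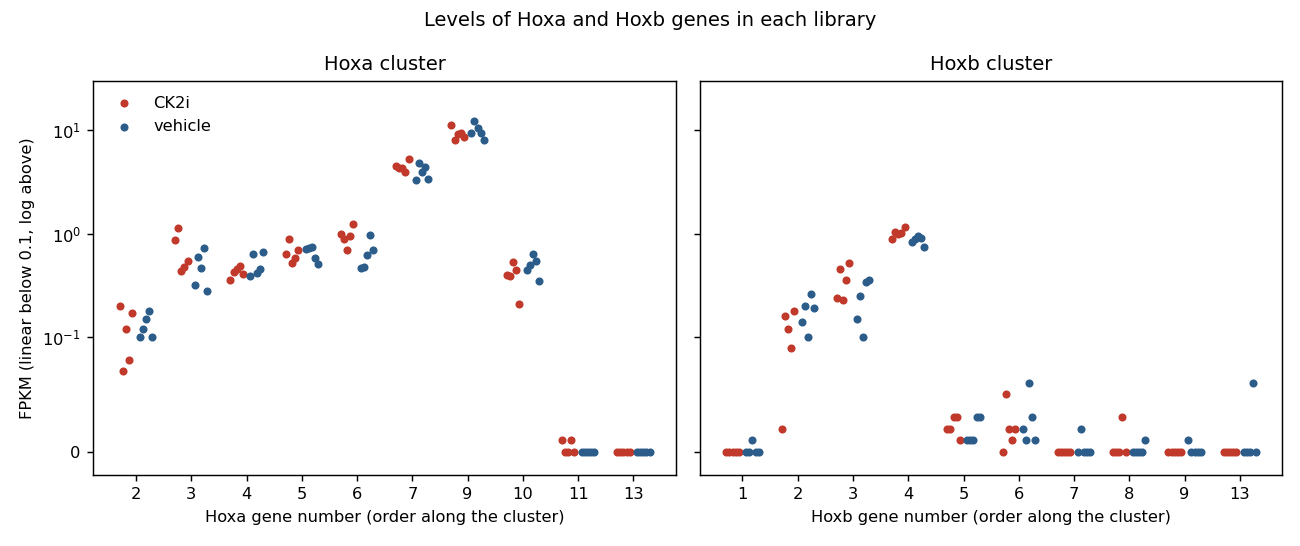
Deposited FPKM of Hoxa genes from Hoxa2 on (left) and of Hoxb genes (right) in the 5 CK2i libraries (red) and the 5 vehicle libraries (blue), on an axis that is linear below 0.1 and logarithmic above. In both groups the points are highest at Hoxa9 in the first cluster and at Hoxb4 in the second, and lie at or near 0 beyond Hoxa10 and Hoxb4.

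The comparison of CK2i with vehicle asks how inhibition of CK2, a constitutively active serine/threonine kinase, altered transcript levels in these progenitors. Of the 9 members, 1 rose, Pbx3, and none fell, where 13.2% of all 14346 genes tested passed an adjusted p of 0.05 in either direction, and 6.43% of all genes tested passed with a higher level in CK2i. The share of members called is thus near that of all genes. All 9 had enough counts to be tested. Their median log2 difference, CK2i minus vehicle, was 0.17, beside -0.001 over all genes tested, with 6 differences above 0 and 3 below. The libraries of the groups overlapped for every member, while they did not overlap for 10.9% of all genes tested. Calls below are from edgeR's quasi-likelihood test with Benjamini-Hochberg adjustment over all genes tested, two-sided. Differences are on the log2 scale of counts with TMM scaling, with the standard error (SE).

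Pbx3, a Pbx cofactor that Hox proteins recruit (ENSMUSG00000038718, chromosome 2, 34171457 to 34373142, minus strand), held 8.6, 10.9, 8.94, 10.3 and 9.82 CPM in CK2i libraries 1 to 5. In vehicle libraries 1 to 5 it held 6.78, 6.44, 6.95, 7.78 and 9.42 CPM. The CK2i libraries 2, 4 and 5 were above all vehicle libraries, and vehicle 5 reached into the range of the treated group. The difference was 0.38 ± 0.11 (adjusted p = 0.0497), a 1.30-fold level with a 95% interval of 1.09 to 1.54. The call sat at the threshold. It did not pass when CK2i 2 (adjusted p = 0.112), CK2i 4 (0.0768) or CK2i 5 (0.101) was left out, nor without vehicle 1 (0.110), vehicle 2 (0.0890), vehicle 3 (0.0957) or vehicle 4 (0.0860), nor with no filter on low counts (0.0693). CK2i 2 and 5 stood apart from the other CK2i libraries on the first principal component of all genes tested, at 43.26 and 43.68, against -4.10 to 12.48 for CK2i 1, 3 and 4 and -29.62 to -9.37 for the vehicle libraries. With CK2i 1, 3 and 4 as the treated libraries, the Pbx3 difference was 0.31 and did not pass (adjusted p = 0.238). CK2i 2 and 5, left out in this setting here and below, lay furthest from vehicle on that component of the same data. Leaving them out, with fewer libraries, makes calls rarer for any gene, so a lost call there decides nothing. By the deposited FPKM, Pbx3 was at 4.94 ± 0.717 in CK2i and 3.48 ± 0.629 in vehicle libraries.

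Among the tested genes whose pattern over the 10 libraries was most like that of Pbx3, by the root mean square difference of centred log2 CPM, were Ftx and Epb42. Ftx, a noncoding RNA gene of the X inactivation centre, differed from it by 0.089, against 0.253 for the departure of Pbx3 from its own mean. For Epb42, which encodes a red cell membrane protein, the value was 0.109.

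Hoxa3 (ENSMUSG00000079560, chromosome 6, 52169062 to 52213336, minus strand) had the largest difference of the members, at low counts. Its level was 1.10, 1.53, 0.882, 1.03 and 1.00 CPM in CK2i libraries 1 to 5. In vehicle libraries 1 to 5 it was 0.555, 0.852, 0.648, 0.927 and 0.412 CPM. These levels came from 34 to 62 counts in CK2i and 16 to 38 counts in vehicle libraries. Of the CK2i libraries, 4 were above all vehicle libraries, and CK2i 3 was below vehicle 4. The difference of 0.71 ± 0.24 did not pass (adjusted p = 0.0685; unadjusted p = 0.0129), with an interval of 1.13 to 2.35 for the fold. Without CK2i 3 it was 0.78 and passed (adjusted p = 0.0499), as it did with DESeq2 (adjusted p = 0.0468). These were the only 2 of 18 alternatives in which it passed. Over the 18, the difference ran from 0.191 to 0.846 and the adjusted p reached 0.304. The scale from counts to FPKM differed between libraries for Hoxa3, from 1280 to 2150 bases, and the FPKM means were 0.694 ± 0.299 in CK2i and 0.476 ± 0.184 in vehicle libraries.

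Hoxa5, a Hox factor also known for its role in the lung (ENSMUSG00000038253, chromosome 6, 52201754 to 52204587, minus strand), was at 1.08, 1.53, 0.882, 0.978 and 1.21 CPM in CK2i libraries 1 to 5 and at 1.23, 1.22, 1.27, 1.00 and 0.875 CPM in vehicle libraries 1 to 5. CK2i 2 was the highest library and CK2i 3 and vehicle 5 the lowest. The difference was 0.02 ± 0.18 (adjusted p = 0.953), with a fold interval of 0.766 to 1.34.

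Hoxa7 (ENSMUSG00000038236, chromosome 6, 52214491 to 52221854, minus strand) held 7.53, 7.57, 6.88, 6.63 and 8.67 CPM in CK2i libraries 1 to 5. The vehicle libraries 1 to 5 held 5.69, 7.85, 6.55, 7.61 and 5.36 CPM. Only CK2i 5 was above all vehicle libraries. The difference of 0.17 ± 0.12 did not pass (adjusted p = 0.342; fold interval 0.934 to 1.36).

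Hoxa9, the Hox gene most closely tied to myeloid progenitor growth (ENSMUSG00000038227, chromosome 6, 52223100 to 52231089, minus strand), was measured with 453 to 532 counts in CK2i and 447 to 626 counts in vehicle libraries. Its levels were 13.6, 13, 12.4, 14.1 and 13.4 CPM in CK2i libraries 1 to 5. In vehicle libraries 1 to 5 they were 14.5, 15.9, 15.0, 13.6 and 11.5 CPM. All CK2i libraries lay within the vehicle range. The difference was -0.08 ± 0.08 (adjusted p = 0.496), with a 95% interval of the fold from 0.830 to 1.07.

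Hoxa10, which neighbours Hoxa9 in the cluster (ENSMUSG00000000938, chromosome 6, 52231197 to 52240854, minus strand), was at 0.807, 0.592, 1.01, 0.819 and 0.472 CPM in CK2i libraries 1 to 5. It was at 0.787, 0.852, 0.997, 0.952 and 0.669 CPM in vehicle libraries 1 to 5. CK2i 2 and 5 were below all vehicle libraries and CK2i 3 above them. The difference of -0.20 ± 0.22 did not pass (adjusted p = 0.537; fold interval 0.627 to 1.21), and with CK2i 1, 3 and 4 only it was 0.043.

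Of the Hoxb members, Hoxb4, known for expanding hematopoietic stem cells when overexpressed (ENSMUSG00000038692, chromosome 11, 96318267 to 96321638, plus strand), was at 3.50, 4.17, 3.93, 3.99 and 4.69 CPM in CK2i libraries 1 to 5. In vehicle libraries 1 to 5 it was at 3.33, 3.54, 3.74, 3.61 and 2.99 CPM. All CK2i libraries except CK2i 1 were above all vehicle libraries. The difference of 0.24 ± 0.11 did not pass (adjusted p = 0.145; unadjusted p = 0.0501), and was 0.142 with CK2i 1, 3 and 4 only. Hoxb3 (ENSMUSG00000048763, chromosome 11, 96323326 to 96347930, plus strand) rested on 11 to 28 counts in CK2i and 7 to 25 counts in vehicle libraries. Its level was 0.531 ± 0.202 CPM in CK2i and 0.390 ± 0.169 CPM in vehicle libraries, with overlapping ranges. The difference of 0.44 ± 0.35 had a fold interval of 0.787 to 2.32 (adjusted p = 0.404) and did not pass.

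Meis1, the TALE partner of Hoxa9 (ENSMUSG00000020160, chromosome 11, 18879817 to 19018985, minus strand), was the best measured member, with 1827 to 2805 counts in CK2i and 2123 to 2709 counts in vehicle libraries. It held 60.2, 51.5, 70.6, 55.5 and 53.9 CPM in CK2i libraries 1 to 5. The vehicle libraries 1 to 5 held 56.8, 56.5, 65.6, 66.1 and 68.5 CPM. CK2i 3 was the highest of all libraries, while CK2i 2, 4 and 5 were below all vehicle libraries. The difference was -0.10 ± 0.09 (adjusted p = 0.430; fold interval 0.812 to 1.07).

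**Figure D2:**
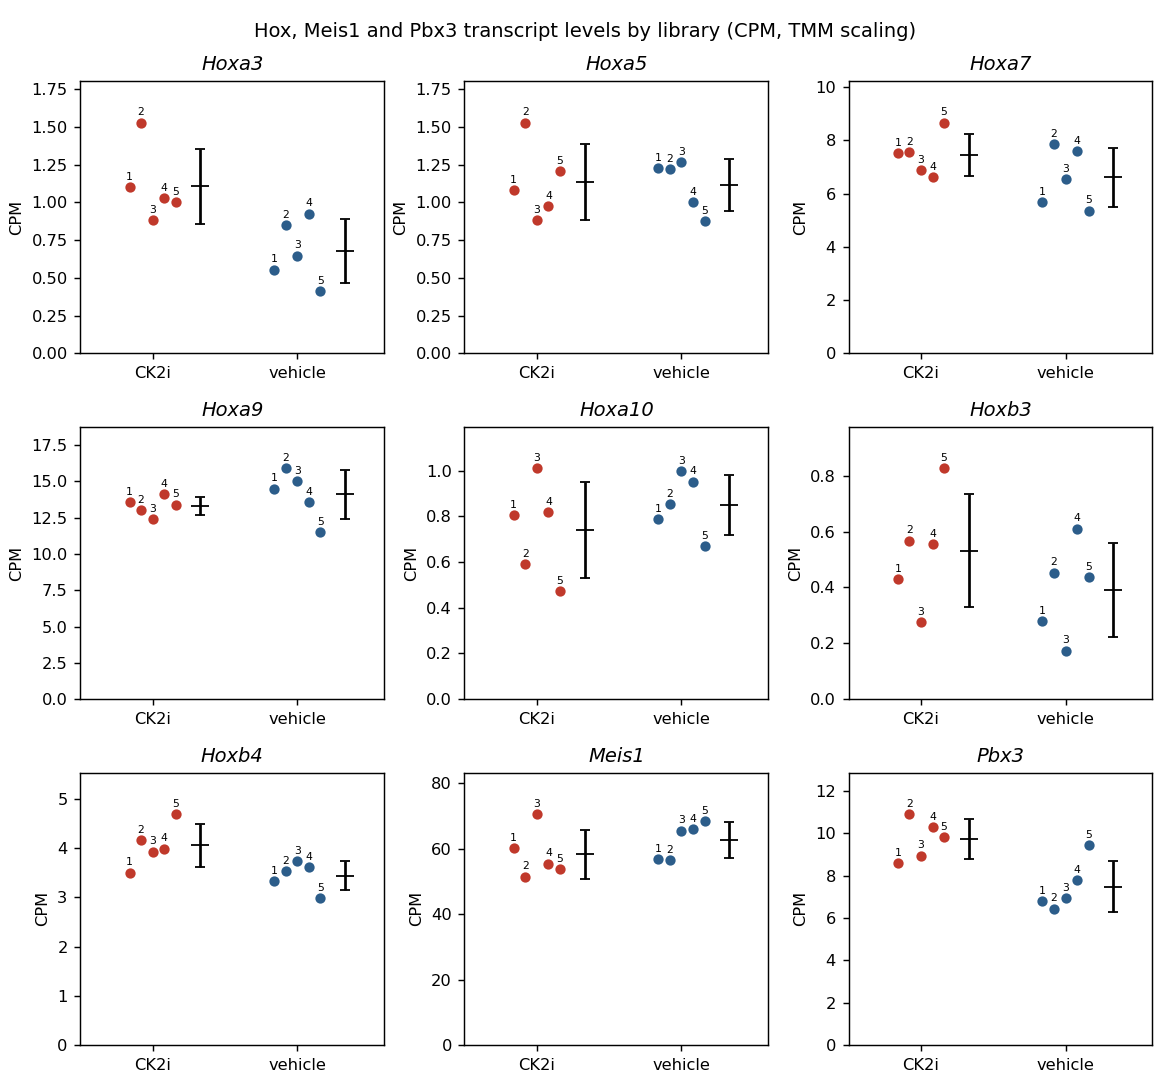
Level of each member in CPM with TMM scaling, in 5 CK2i libraries (red, left in each panel) and 5 vehicle libraries (blue, right), numbered by replicate, with mean and SD at the side. For Pbx3, CK2i 2, 4 and 5 stand above all vehicle libraries, and for Hoxa9 all CK2i points lie within the vehicle range.

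**Figure D3:**
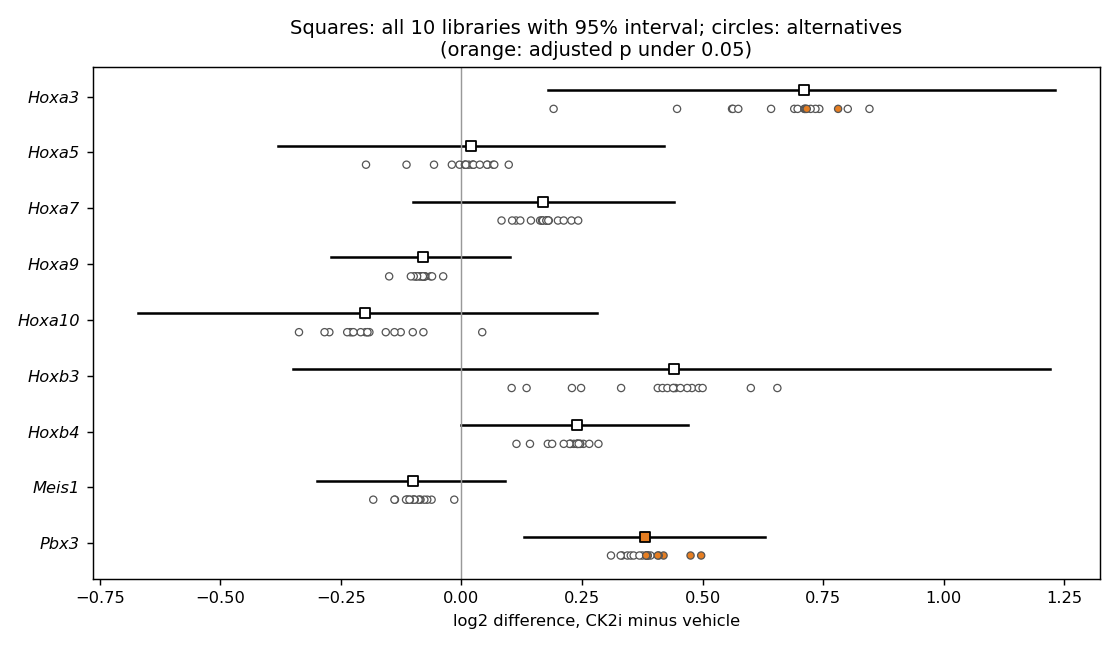
Log2 difference, CK2i minus vehicle, of each member from all 10 libraries (squares, with 95% interval) and under the alternative settings (circles: other scalings, filters and tools, the replicate number as a block, and libraries left out). Orange marks an adjusted p under 0.05: Pbx3 is called from all 10 libraries and under 9 of 19 alternatives, Hoxa3 under 2 of 18, and no other member under any.

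Of the 11 genes of the wider Meis, Pbx, Pknox and Tgif list, 9 were tested, of which Pbx3 rose and Pbx4 fell, with a median difference of -0.10. Of all genes tested, 13.2% passed in either direction. Pbx2 and Meis1 were the most abundant Pbx and Meis genes. Pbx2 was at 26.9 ± 2.19 FPKM in CK2i and 26.0 ± 0.662 FPKM in vehicle libraries and did not pass (0.05 ± 0.04, adjusted p = 0.421). Pbx4, a further Pbx family gene (ENSMUSG00000031860), held 6, 5.23, 6.50, 6.71 and 5.99 CPM in CK2i libraries 1 to 5. In vehicle libraries 1 to 5 it held 7.57, 7.08, 7.87, 7.95 and 7.80 CPM. Every CK2i library was below every vehicle library. The difference was -0.33 ± 0.08 (adjusted p = 0.0318; fold interval 0.701 to 0.901). The call was lost without CK2i 2 (adjusted p = 0.0620), CK2i 5 (0.0727), vehicle 1 (0.0667), vehicle 3 (0.0619), vehicle 4 (0.0701) or vehicle 5 (0.0691), and with CK2i 1, 3 and 4 only (0.139). Pknox1, whose protein competes with Meis for Pbx, differed by -0.09 ± 0.05 (adjusted p = 0.250), Tgif1 by 0.21 ± 0.09 (0.118) and Tgif2 by -0.22 ± 0.11 (0.166). Pbxip1, which encodes a Pbx-binding protein, differed by -0.14 ± 0.06 (adjusted p = 0.114).

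**Figure D4:**
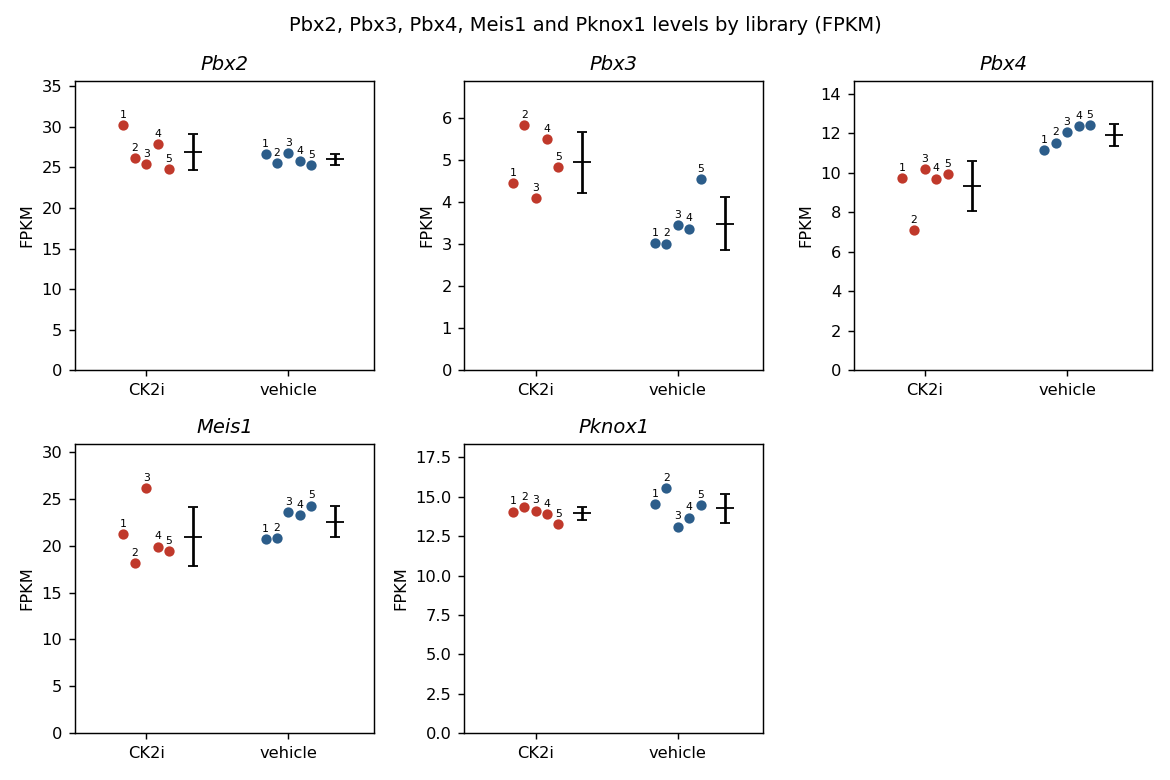
Deposited FPKM of Pbx2, Pbx3, Pbx4, Meis1 and Pknox1 in CK2i libraries (red, left) and vehicle libraries (blue, right), numbered by replicate, with mean and SD at the side. All CK2i points for Pbx4 lie below all vehicle points, and 3 of 5 for Pbx3 lie above all vehicle points.

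Among the cluster genes that are not members, none passed. Hoxa6, next to Hoxa7, was at 1.5 ± 0.323 CPM in CK2i and 1.01 ± 0.317 CPM in vehicle libraries (0.56 ± 0.23, adjusted p = 0.112). The Hoxa list had 8 of 11 genes tested, with a median of 0.01, and the Hoxb list 2 of 10, both members. Of 9 long noncoding transcripts of the clusters, 2 were tested and neither passed. Hotairm1, a transcript of the Hoxa cluster, held 3 to 18 counts in CK2i and 10 to 25 counts in vehicle libraries (-0.70 ± 0.39, adjusted p = 0.227), and Hoxaas3 differed by -0.07 ± 0.34 (adjusted p = 0.910).

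Proteins that maintain Hox transcription were tested in 19 of 22 cases, with Psip1 the 1 call, downward, where 6.76% of all genes tested were lower. Psip1, whose product LEDGF tethers MLL complexes to chromatin, was at 174 ± 9.27 CPM in CK2i and 191 ± 3.95 CPM in vehicle libraries (-0.14 ± 0.04, adjusted p = 0.0475). Leaving out any 1 library other than CK2i 4 ended the call. Kmt2a, the gene of MLL itself, was at 109 ± 37.5 CPM in CK2i and 74.2 ± 7.86 CPM in vehicle libraries and did not pass (adjusted p = 0.0737). CK2i 2 (163 CPM) and CK2i 5 (133 CPM) were highest, while CK2i 1, 3 and 4 held 78.4, 78.1 and 94.5 CPM, against 62.9 to 82.6 CPM in vehicle libraries. Of the 2 most abundant others, Npm1 differed by -0.06 ± 0.06 (adjusted p = 0.498) and Dpy30 by 0.01 ± 0.05 (adjusted p = 0.901). Cdx1, Cdx2 and Cdx4 had a count of 0 in all libraries. Among 17 Polycomb and related repressors, Jarid2, a partner of PRC2, fell by 0.14 ± 0.04 (adjusted p = 0.0490), and leaving out any 1 library other than vehicle 2 ended that call. Ezh2, the PRC2 methyltransferase, differed by 0.04 ± 0.06 (adjusted p = 0.719) and Suz12, another PRC2 subunit, by 0.14 ± 0.07 (adjusted p = 0.215). The median difference was 0.03 for the activators and 0 for the repressors. In neither list was the share called above that of all genes tested.

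Of 19 tested genes known as targets of Hoxa9 and Meis1, 4 fell and none rose, with a median of 0.06, where 6.76% of all genes tested were lower. The list was chosen with earlier results of these data known, so this count is a description only. Trib2, a pseudokinase, was at 19.1 ± 3.69 CPM in CK2i and 46.0 ± 5.50 CPM in vehicle libraries (-1.26 ± 0.13, adjusted p = 0.00203), and passed whichever library was left out. Lmo2, a bridging factor of stem and progenitor cells, fell by 0.15 ± 0.03 (adjusted p = 0.0216). Its difference was -0.169 to -0.139 with 1 library left out, and it missed the threshold without CK2i 5 (adjusted p = 0.0542) or vehicle 4 (0.0529). Mef2c fell by 0.24 ± 0.07 (adjusted p = 0.0451), a call that passed in 2 of the 10 fits without 1 library, those without CK2i 3 or vehicle 2. Ccl3, a chemokine gene, fell by 0.43 ± 0.10 (adjusted p = 0.0297). Its difference was -0.487 to -0.356 with 1 library left out, and it missed the threshold without CK2i 2 (adjusted p = 0.0612), CK2i 5 (0.0620), vehicle 3 (0.0560), vehicle 4 (0.0531) or vehicle 5 (0.0549). With CK2i 1, 3 and 4 only, Trib2 alone of these passed. Flt3, a cytokine receptor of early progenitors, was at 82.6 ± 10.3 CPM in CK2i and 64.4 ± 10.8 CPM in vehicle libraries and did not pass (0.36 ± 0.12, adjusted p = 0.0640). Myb differed by -0.06 ± 0.05 (adjusted p = 0.393) and Myc by -0.19 ± 0.07 (adjusted p = 0.102). Kmt2a and Flt3 were named after their values were seen.

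The labelled cell type was checked against its markers. Kit, the stem cell factor receptor, was at 225 ± 19.2 CPM in CK2i and 269 ± 16 CPM in vehicle libraries, and Cd34 at 197 ± 14.8 CPM in CK2i and 179 ± 29.4 CPM in vehicle libraries. In bulk RNA, fewer cells of a type and less RNA per cell cannot be told apart. Some markers of maturing lineages differed between the groups. Of all genes tested, 6.43% were called higher and 6.76% lower, and the counts below stand beside these shares. Of 10 granulocyte and monocyte progenitor genes, 7 were higher and none lower, with summed levels of 5400 to 8770 CPM in CK2i and 2930 to 5950 CPM in vehicle libraries. CK2i 2 (8770 CPM) and CK2i 5 (8560 CPM), which stood apart on the first principal component, had the highest sums, and the lowest CK2i sum lay within the vehicle range. Of 10 megakaryocyte and platelet genes, 5 were lower and none higher, with sums of 1680 to 3510 CPM in CK2i and 2880 to 4460 CPM in vehicle libraries, and CK2i 2 (1680 CPM) and CK2i 5 (1980 CPM) had the lowest sums. Of 12 erythroid genes, 6 were higher and 2 lower, with sums of 1980 to 2540 CPM in CK2i and 2170 to 3260 CPM in vehicle libraries. The higher genes were Hba-a1, Hba-a2, Hbb-bs, Hbb-bt, Slc4a1 and Alas2, the lower Gata1 and Car1, and the list median was 0.65. Most of the sums came from Car1 and Tfrc. Car1 was at 696 ± 173 CPM in CK2i and 1190 ± 149 CPM in vehicle libraries. Tfrc was at 676 ± 93.7 CPM in CK2i and 833 ± 268 CPM in vehicle libraries (adjusted p = 0.277). Of 17 stem and multipotent progenitor genes, which include Meis1, Hoxa9 and Hoxb4, 2 were lower, Kit among them, and none higher, with sums of 954 to 1090 CPM in CK2i and 1050 to 1170 CPM in vehicle libraries. The median difference of the 17 was 0.14, in the other direction from these calls and sums. The B lymphoid and plasma cell list had 6 genes tested, of which Jchain, the immunoglobulin joining chain, was lower (308 ± 66.2 CPM in CK2i and 592 ± 73.2 CPM in vehicle libraries, adjusted p = 0.00611). The list's sums did not overlap, at 426 to 629 CPM in CK2i and 659 to 860 CPM in vehicle libraries. Jchain made up most of these sums, whose means were 491 CPM in CK2i and 770 CPM in vehicle libraries. Xbp1, the next most abundant of the list, differed by 0.02 ± 0.06 (adjusted p = 0.812), and the median of the 6 was -0.18. Gzmb, the granzyme B gene, was lower and was the 1 call both among 5 tested T and NK genes and among 7 eosinophil, basophil and mast cell genes. For the T and NK list, summed levels were 44.1 to 81.1 CPM in CK2i and 33.3 to 60.4 CPM in vehicle libraries. Most of that was Nkg7, at 57.8 ± 16 CPM in CK2i and 40.4 ± 9.23 CPM in vehicle libraries (0.52 ± 0.20, adjusted p = 0.102). The median of the 5 tested was 0.05. For the eosinophil, basophil and mast cell list, sums were 656 to 2350 CPM in CK2i and 581 to 1260 CPM in vehicle libraries. Its largest part was Prg2, at 1010 ± 510 CPM in CK2i and 500 ± 204 CPM in vehicle libraries (1.02 ± 0.40, adjusted p = 0.1). Mcpt8 differed by -0.73 ± 0.27 (adjusted p = 0.0853), and the median of the 7 was -0.46. Of 10 stromal and endothelial genes, Apoe was lower, with sums of 112 to 193 CPM in CK2i and 157 to 234 CPM in vehicle libraries. None was called among 4 epithelial and 5 RNA quality genes. No gene of these lists was at 0 in all libraries. Their part in the Pbx3 and Pbx4 differences was not tested.

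Promoter sequences of 300 bases, from 250 before to 50 after a start site, were found for 7 members in the RefSeq table (GRCm38.p6). Hoxb3 and Pbx3 had no entry. They were searched on both strands for TGATNNAT, the composite Hox and Pbx motif, for TGACAG, the Meis motif, and for CCAAT. None of the 7 members' windows held TGATNNAT, which 8.8% of all 32851 promoters hold. The windows of Hoxa3 and Meis1 are shown as those of the members with the largest difference and the highest level, with matches in capitals. In that of Hoxa3 (chr6:52213018-52213317, minus strand), CTGTCA, the reverse complement of TGACAG, begins 13 bases before the start site, and 19.2% of all promoters hold that motif. In that of Meis1 (chr11:19018920-19019219, minus strand), CCAAT begins 54 bases before the start site, and 37.4% of all promoters hold it. CCAAT was also found, on the opposite strand, in the window of Hoxa5 and in 1 of the windows of Hoxa10, and TGACAG in no other member's window.
Hoxa3: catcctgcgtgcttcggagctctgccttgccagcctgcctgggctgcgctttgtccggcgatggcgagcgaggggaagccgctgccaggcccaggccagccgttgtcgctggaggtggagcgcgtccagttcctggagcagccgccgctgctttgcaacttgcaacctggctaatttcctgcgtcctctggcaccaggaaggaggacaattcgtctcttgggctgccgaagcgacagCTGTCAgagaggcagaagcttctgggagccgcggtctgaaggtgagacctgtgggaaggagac
Meis1: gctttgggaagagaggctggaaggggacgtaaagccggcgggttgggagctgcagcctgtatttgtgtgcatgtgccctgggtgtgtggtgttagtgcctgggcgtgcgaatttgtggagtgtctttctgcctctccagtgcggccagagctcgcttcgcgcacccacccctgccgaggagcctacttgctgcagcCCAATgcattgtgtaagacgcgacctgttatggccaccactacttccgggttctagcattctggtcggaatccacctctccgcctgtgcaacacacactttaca
A match is a description of the letters, and no match says nothing of binding elsewhere.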

How the data were processed

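RNA from progenitors was sequenced as 75 base paired reads after a stranded total RNA kit, per the labels' protocols. The deposited estimated counts are whole numbers per gene, and the deposited FPKM values scale counts by length and depth. Per the submitters' processing notes, Bowtie2, RSEM 1.2.31 and DESeq2 were used with build mm10. No source used here gives the annotation, the strand setting or the filters. Counts summed to 34127674 to 40811539 per CK2i library and 37569160 to 43636152 per vehicle library. Members below 2 CPM rested on few counts, and what limits their precision was not tested.

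Symbols came from GENCODE M21 (GRCm38), which matched 37570 of 38887 identifiers. The main fit was edgeR 4.0.16 (R 4.3.3, quasi-likelihood test, TMM scaling, group as the only term) on the 14346 genes kept by filterByExpr with a minimum count of 10. It was tested on simulated data, and the outcome is not reported here. SE is the log2 difference over the square root of F. Alternatives used limma 3.58.1 on log2(FPKM + 1) and DESeq2 1.42.0, among others.

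No 2 libraries of a group agreed within sampling noise (chi-square per degree of freedom at least 10.9). The named genes are the members, each list gene that passed, the 2 others of highest FPKM in each list, any gene of the Hox clusters and the Meis, Pbx, Pknox and Tgif list, and the 3 genes most like a called member. Some genes under this rule are not reported here. The members and all gene lists were chosen with earlier results of these data known.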

Additional observations from a re-analysis of the deposited data

How the results depend on the processing

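The 1 member called became 0 with no filter on low counts, 0 with the replicate block, 0 with CK2i replicates 1, 3 and 4 only, 2 with DESeq2 (Pbx3 and Hoxa3), and 0 to 2 when 1 library was left out. The number of all genes past the threshold, 1892, became 3169 with DESeq2, 1197 with limma on log2(FPKM + 1), 1223 with limma on log2(FPKM + 0.1), 1139 with the replicate block, 175 with CK2i replicates 1, 3 and 4 only, and 446 to 3198 when 1 library was left out. The replicate number was not taken to pair the libraries: correlations of same-numbered deviations ran from -0.16 to 0.23, and 2 of 5 CK2i libraries matched best with their own number. With the block the adjusted p was 0.0645 for Pbx3 and 0.0482 for Pbx4. Directions turned for Hoxa5 (0.019 from all libraries; -0.198 with CK2i 1, 3 and 4 only; -0.114 to 0.098 with 1 library left out), for Hoxa10 (0.043 with CK2i 1, 3 and 4 only) and for Meis3 (0.046 and 0.197 by limma with pseudocounts of 1 and 0.1; 0.077 with CK2i 1, 3 and 4 only). None of these values passed, and the causes were not tested. The other 7 members kept their direction under every alternative run. Hoxa3, Hoxa5, Hoxa10 and Hoxb3 did not reach the stricter minimum count of 50. These 4 had the fewest counts of the members.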

Other observations

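The authors' length scale, CPM over FPKM times 1000, was steady for Hoxb4 and Hoxa5 over the 10 libraries, at 3950 to 4010 and 1690 to 1730 bases. For Hoxa9 it ran from 1220 to 1630 bases in CK2i and from 1280 to 1530 bases in vehicle libraries. For Hoxa10 it ran from 1520 to 2250 bases in CK2i and from 1580 to 1910 bases in vehicle libraries, and for Hoxb3 from 1200 to 1790 bases in CK2i and from 1220 to 1850 bases in vehicle libraries. CK2i 1 held more Hoxa9 by FPKM (11.15) than CK2i 4 (9.45), while its CPM was lower (13.6 against 14.1). The order of these libraries thus differs between the units.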
